A study of Mus musculus with 6 samples.

Results

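The tumour necrosis factor (TNF) receptor superfamily was described in regulatory T cells (Treg) through 8 of its genes, Tnfrsf18, Tnfrsf4, Tnfrsf9, Tnfrsf1a, Tnfrsf1b, Cd27, Fas and Ltbr. The members were all probe sets whose only symbol in the platform annotation was a name on that list, which gave 11 of the 22626 probe sets tested, for 8 of 12393 named genes. RNA came from magnetically separated CD4+CD25+ T cells, the fraction that holds most Treg, of mice on the C57BL/6 strain. Of the 6 samples, 3 were from HDAC9-/- mice, which lack the class IIa histone deacetylase HDAC9, and 3 from wild type mice; no treatment, age or sex is given in the labels. Each sample was read on 1 Affymetrix array, and precision is limited by their number. The design text calls the samples independent without saying whether each is 1 mouse or a pool, so p-values measure only the spread between these samples, which may be technical.

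Receptors of this superfamily are membrane proteins with cysteine-rich repeats outside the cell that bind trimeric ligands of the TNF family. Most recruit TRAF adaptors and activate NF-kappaB, which supports survival and growth of T cells, while those with a death domain, such as Fas and Tnfrsf1a, can also start apoptosis. Treg are known for carrying high levels of Tnfrsf18 (GITR), Tnfrsf4 (OX40) and Tnfrsf1b (the second TNF receptor), through which their number and activity are adjusted. The array measures messenger RNA, so nothing here reports receptor protein on the cell surface.

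Hdac9, the deleted gene, was dim everywhere, with its 1 probe set 1421306_a_at at log2 values of 3.50, 3.74 and 4.10 on wild type replicates 1 to 3 against 3.74, 3.62 and 3.66 on HDAC9-/- replicates (limma adjusted p = 0.839). At the 19.8th percentile of brightness, and without knowing which part of the gene it reads, it neither bears out nor contradicts the genotype labels. Of 7 genes that mark Treg or CD4 T cells, 6 were at or above the median probe set, and none passed the test described below. Foxp3, the transcription factor that Treg depend on, had a mean log2 signal of 10.34 in wild type against 10.37 in HDAC9-/- samples, and Ctla4, an inhibitory receptor, had 11.20 and 11.30. Cd3e read 11.83 and 11.79, Cd4 9.90 and 9.83, and Ikzf4, the factor Eos, 8.85 and 8.75. Ikzf2, the factor Helios, was the 1 gene below the median, at 4.87 and 5.08. Il2ra, which encodes CD25, read 9.48 and 9.40, and in both of its probe sets the HDAC9-/- values lay below all wild type values (differences -0.085 and -0.19, limma adjusted p = 0.712 and 0.557). A dimmer Cd4 probe set, 1427779_a_at, read 5.55 and 5.18, also without overlap (difference -0.375, limma adjusted p = 0.496, unadjusted p = 0.016). Of the 10 probe sets of these 7 genes, 3 did not overlap, all lower, where 6.04% of all probe sets were lower without overlap. Array medians ran from 5.69 to 5.81, and wild type replicate 3, with the lowest, also had the lowest mean correlation with the other arrays (0.991 against 0.994 to 0.996; probe sets are not replicates). Markers of other cells were not evenly spread. Of 16 myeloid marker genes 15 read higher in HDAC9-/- samples and 0 passed the test described below. Their summed linear signal ran from 6055 to 10087 over the wild type arrays and from 11837 to 14358 over the HDAC9-/- arrays. Such a sum is weighted to bright genes, among them S100a8 and S100a9, which differed by 0.96 and 1.01. A score that averages each gene's deviation from its own mean, with equal weights, overlapped between the genotypes. It was -0.45, -0.13 and -0.043 on wild type replicates 1 to 3 and 0.39, 0.34 and -0.11 on HDAC9-/- replicates. For CD8 T and natural killer cell markers, 10 of 12 measured genes read higher, with summed signals of 6097 to 7861 and 7480 to 8134. B cell markers read higher for 5 of 9 genes, with sums of 1056 to 1257 and 920 to 1531. Plasma cell markers read lower for 4 of 5 genes, with sums of 4718 to 4949 and 3418 to 3865 that did not overlap. Jchain, the joining chain of antibodies, differed by -0.47 (limma adjusted p = 0.337, unadjusted p = 0.000762). At 11.99 in wild type it was by far the brightest of the 5, so the sum mainly follows this gene. Sdc1, Irf4 and Derl3 differed by -0.046, -0.092 and -0.28 and Prdm1 by 0.022, all with overlapping groups. Values produced with RMA do not reach 0, but 3 myeloid markers (Itgam, Cd14 and Clec4a2) were dimmer than the median probe set, whose mean was 5.76. The 3-prime minus 5-prime signal of the Gapdh controls, which widens as RNA degrades, was 0.026 to 0.11 on wild type arrays and 0.16 to 0.28 on HDAC9-/- arrays. The part of these quantities in any receptor value below was not tested.

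Several of the 8 genes are close neighbours on their chromosomes, while Fas, Tnfrsf9 and Tnfrsf1b lie apart from the other members. By the order of protein-coding genes in RefSeq's table for GRCm38.p6, 4 members are on chromosome 4, 3 on chromosome 6 and 1, Fas, on chromosome 19. Tnfrsf4 and Tnfrsf18 are direct neighbours with 0 protein-coding genes between them, and Tnfrsf1b is the direct neighbour of Tnfrsf8, another receptor of the family. Tnfrsf9, on the same chromosome, has 71 protein-coding genes between it and Tnfrsf8. On chromosome 6, Cd27, Ltbr and Tnfrsf1a follow each other with 1 protein-coding gene between each pair.

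The promoter windows of the members differed in the short motifs they hold. RefSeq windows of GRCm38.p6, from 250 bases before to 50 bases after a start site, were found for all 8 genes, 9 windows in all, because Tnfrsf9 has 2 annotated starts. They were searched on both strands for 3 motifs: NF-kappaB (GGGAANNNC), which TNF receptors activate, AP-1 (TGANTCA), which T cell receptor signals activate, and MEF2 (CTANNNNTA), whose factors bind class IIa deacetylases such as HDAC9. The NF-kappaB and MEF2 letters are loosened forms of the usual consensus sequences, since they allow any base at each N. Their last letter was also left off, a choice made after matches to the longer forms had been seen. Such short, loose forms are common, and a match need not fit the full consensus. The NF-kappaB letters were in 4 of 9 windows (19.5% of all 32851 promoter windows held them), the AP-1 letters in 2 of 9 (7.81% of all) and the MEF2 letters in 1 of 9 (21.0% of all). Matches to the NF-kappaB letters lay in the windows of Tnfrsf18, Tnfrsf1b, Fas and 1 start of Tnfrsf9, and the MEF2 match in that of Tnfrsf4. Both Tnfrsf9 windows and that of Fas are printed, since Tnfrsf9 is the member with several starts and several unequal probe sets, and these genes hold the AP-1 matches. Capitals mark the matches, which are a description of letters and not of bound sites.
Tnfrsf9, upstream start, chr4:150919905-150920204, plus strand: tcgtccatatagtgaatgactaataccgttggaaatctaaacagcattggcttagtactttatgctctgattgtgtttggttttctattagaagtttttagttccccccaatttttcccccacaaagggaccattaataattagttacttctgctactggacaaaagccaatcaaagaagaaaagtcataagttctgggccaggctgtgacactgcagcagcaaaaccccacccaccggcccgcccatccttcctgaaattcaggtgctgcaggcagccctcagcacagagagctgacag
Tnfrsf9, downstream start, chr4:150927749-150928048, plus strand: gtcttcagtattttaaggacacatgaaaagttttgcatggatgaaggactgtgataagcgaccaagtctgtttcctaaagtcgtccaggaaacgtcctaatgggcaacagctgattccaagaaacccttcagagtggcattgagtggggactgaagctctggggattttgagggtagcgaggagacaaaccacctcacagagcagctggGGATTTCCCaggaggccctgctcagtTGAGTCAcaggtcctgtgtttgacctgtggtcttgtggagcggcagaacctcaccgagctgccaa
Fas, chr19:34290409-34290708, plus strand: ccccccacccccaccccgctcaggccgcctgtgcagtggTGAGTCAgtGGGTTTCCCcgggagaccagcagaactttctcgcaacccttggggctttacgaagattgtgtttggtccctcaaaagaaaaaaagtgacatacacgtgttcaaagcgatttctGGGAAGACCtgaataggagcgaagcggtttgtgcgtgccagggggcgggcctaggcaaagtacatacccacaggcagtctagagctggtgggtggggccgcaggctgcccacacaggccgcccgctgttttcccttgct
The upstream Tnfrsf9 window holds none of the 3 motifs. The downstream window, 7844 bases further on, holds GGATTTCCC, which matches the NF-kappaB motif on the opposite strand, and the AP-1 match TGAGTCA. The Fas window holds the same AP-1 match and, for the NF-kappaB motif, GGGTTTCCC on the opposite strand and GGGAAGACC.

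The first question was how bright each receptor was in these cells. Each gene was represented by its brightest probe set, and the order is one of array signal, which depends on the probes as well as on the number of transcripts. Tnfrsf18, a costimulatory receptor, had the highest signal, with a mean log2 value over the 6 arrays of 11.36 ± 0.08 (SD), in the 97.8th percentile of all probe sets. Tnfrsf4, a costimulatory receptor of activated T cells and Treg, followed at 11.07 ± 0.09, and Cd27, a costimulatory receptor of naive and memory lymphocytes, at 10.13 ± 0.16. These leading genes were 20.7 to 48.3 times as bright as the median probe set.

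Tnfrsf1b, the TNF receptor without a death domain, came next at 9.83 ± 0.10 and Tnfrsf9, the activation-induced receptor CD137, after it at 9.65 ± 0.09. The members with a death domain were dimmer, with Tnfrsf1a at 8.03 ± 0.11 and Fas at 7.65 ± 0.12. Ltbr, the lymphotoxin beta receptor, best known from stromal and myeloid cells, had a mean of 5.13 ± 0.27. Of the 8 genes it was the 1 dimmer than the median probe set, and with this table it cannot be said whether its signal exceeded background.

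The order of the 8 genes was the same on each of the 6 arrays. The ranges over the 6 arrays overlapped only between Cd27 (9.92 to 10.31) and Tnfrsf1b (9.68 to 9.93), and between Tnfrsf1b and Tnfrsf9 (9.53 to 9.77), so these neighbours were not separate over the 6 arrays pooled across genotypes, although the first of each pair was the brighter within every array. The other neighbours had separate ranges, with mean gaps of 0.29 between Tnfrsf18 and Tnfrsf4, 0.93 between Tnfrsf4 and Cd27, 1.62 between Tnfrsf9 and Tnfrsf1a, 0.38 between Tnfrsf1a and Fas and 2.52 between Fas and Ltbr. With the mean of all probe sets of a gene in place of the brightest, 4 genes changed place, because Tnfrsf1b and Tnfrsf9 have dim probe sets. Tnfrsf1b then read 7.88 in the fifth place and Tnfrsf9 7.01 in the seventh.

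**Figure D1:**
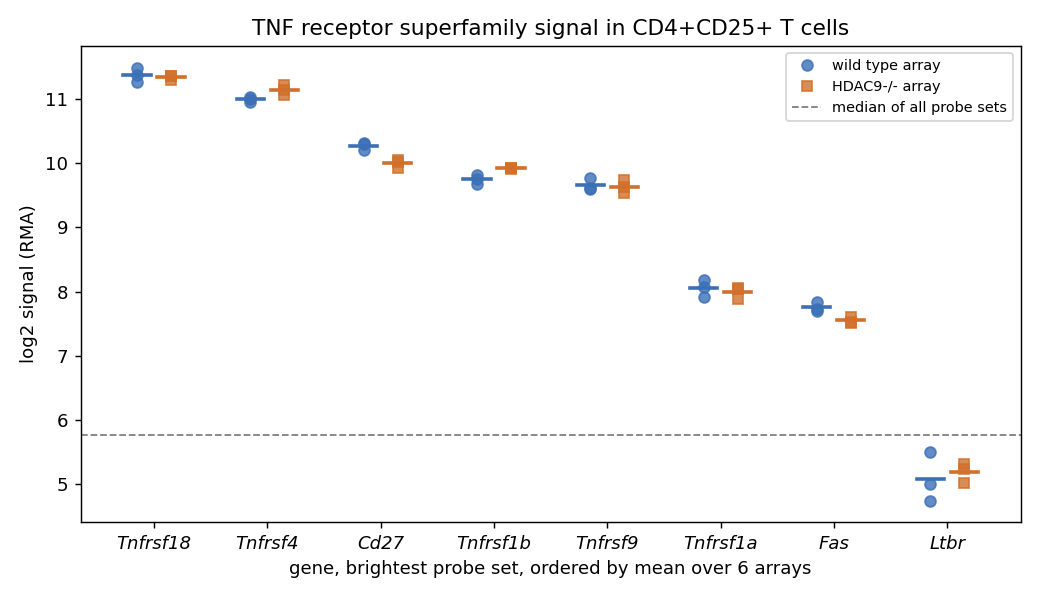
Log2 signal (vertical axis) of the brightest probe set of each gene on each array, with genes ordered from left to right by their mean over 6 arrays. Circles are wild type and squares HDAC9-/- arrays, horizontal bars are group means (n = 3), and the dashed line is the median of all probe sets (5.76). Tnfrsf18 and Tnfrsf4 lie highest, above 10.9 on every array, and Ltbr, the lowest, is the 1 gene under the dashed line.

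The second question was whether these levels differed between HDAC9-/- and wild type samples. None of the 11 probe sets passed limma's moderated test, with Benjamini-Hochberg adjustment over all 22626 probe sets and a threshold of 0.05, where 0.0133% of all probe sets passed (3 of 22626). Cd27 and Fas read lower and Tnfrsf1b higher in HDAC9-/- samples at an unadjusted p below 0.05, which is 3 of 11 probe sets against 8.78% of all (1 higher and 2 lower, against 5.55% and 3.23% of all). The genotypes did not overlap for 5 of 11 probe sets, 2 higher and 3 lower, where 17.0% of all probe sets did not overlap, 11.0% higher and 6.04% lower. Single arrays moved these counts: without HDAC9-/- replicate 1 or replicate 2 the 3 became 1, Cd27 (6.11% and 6.21% of all), and without wild type replicate 3 the 5 became 8 (29.3% of all). The median difference (HDAC9-/- minus wild type, log2) was -0.024 over the 11 probe sets and 0.0078 over all probe sets tested. The differences ran from -0.27 to 0.17, and the median size was 0.11 against 0.092 for all probe sets.

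**Figure D2:**
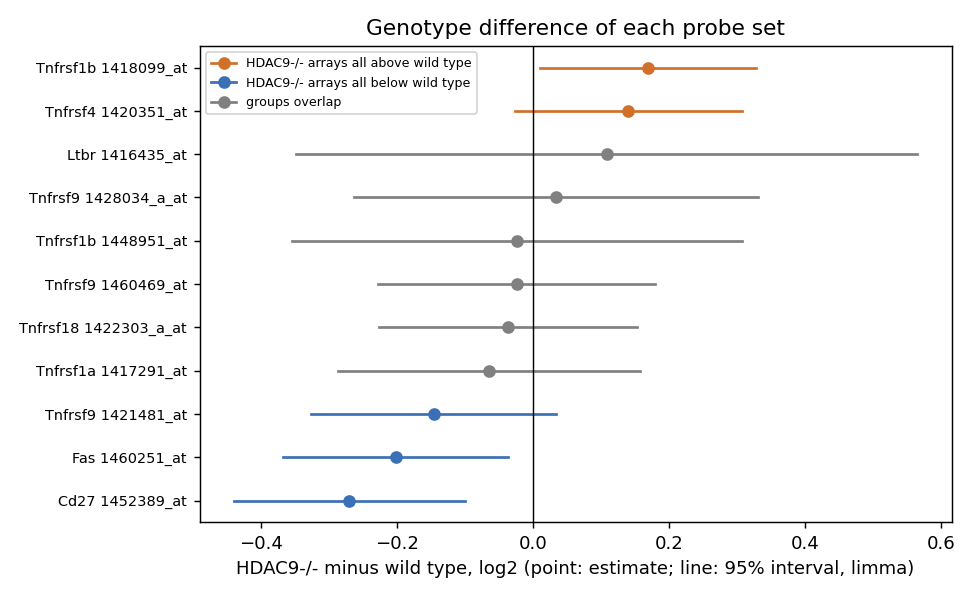
Difference between HDAC9-/- and wild type arrays (horizontal axis, log2) for each of the 11 probe sets, as the limma estimate with its 95% confidence interval. Orange marks probe sets whose 3 HDAC9-/- arrays all lie above the 3 wild type arrays, blue those all below and grey those that overlap. Estimates run from -0.27 for Cd27 to 0.17 for Tnfrsf1b, and none passed after adjustment over all probe sets.

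Among the costimulatory receptors, Cd27 had the largest difference. Cd27 binds CD70 on antigen-presenting cells and sustains survival of T cells. Probe set 1452389_at read 10.30, 10.20 and 10.31 on the wild type arrays, in the order of replicates 1 to 3, and 10.05, 9.92 and 10.02 on the HDAC9-/- arrays, an order kept below. All HDAC9-/- values lay below all wild type values, and the gap between the groups (10.20 against 10.05) was wider than the range within either. The difference was -0.27 with a standard error of 0.07, a change in signal of -17.1% (95% confidence interval of the difference -0.44 to -0.10, limma adjusted p = 0.439, unadjusted p = 0.00719). Of all probe sets, 8.70% had a difference of larger size. Fewer cells that carry a transcript and less of it per cell cannot be told apart in such samples, and CD8 T cells, natural killer cells, B cells and plasma cells, which the separation for CD4+CD25+ cells is meant to remove, can also express Cd27. Of their markers, given above, those of CD8 T and natural killer cells mostly read higher in HDAC9-/- samples, opposite to Cd27. Among plasma cell markers Jchain read lower without overlap, like Cd27, and the others overlapped. The part of these cells in the difference was not tested.

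Tnfrsf18 did not separate the genotypes. GITR is a costimulatory receptor whose triggering weakens suppression by Treg in culture. Probe set 1422303_a_at read 11.37, 11.49 and 11.26 on wild type arrays and 11.36, 11.30 and 11.36 on HDAC9-/- arrays. The HDAC9-/- values lay inside the wild type range. The difference was -0.037 with a 95% confidence interval of -0.23 to 0.15, and its sign turned without wild type replicate 2 (0.021).

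Tnfrsf4, its neighbour on the chromosome, read slightly higher in HDAC9-/- samples without passing. OX40 signals favour survival and memory of T cells. Probe set 1420351_at read 11.03, 10.95 and 11.00 on wild type arrays and 11.13, 11.06 and 11.21 on HDAC9-/- arrays. The groups did not overlap, but the lowest HDAC9-/- array, at 11.06, was close to the highest wild type array, at 11.03. The difference was 0.14 with a standard error of 0.07 (interval -0.027 to 0.31, limma adjusted p = 0.609).

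Tnfrsf9 was measured by 3 probe sets of very different brightness, and they did not move together. CD137 is induced by T cell receptor signals and marks recently activated Treg. The brightest, 1460469_at, read 9.77, 9.61 and 9.60 on wild type arrays and 9.74, 9.53 and 9.64 on HDAC9-/- arrays, and 1428034_a_at read 8.16, 7.88 and 7.77 against 7.996, 7.82 and 8.10. Both overlapped, with differences of -0.024 (interval -0.23 to 0.18) and 0.034 (interval -0.26 to 0.33). The dimmest, 1421481_at, read 3.49, 3.43 and 3.59 against 3.43, 3.37 and 3.29, so the HDAC9-/- values lay just below the wild type values. That probe set sits in the 12.8th percentile of brightness, and its difference of -0.15 (limma adjusted p = 0.609) was not shared by the brighter probe sets. Which transcript ends or start sites the 3 probe sets read was not analysed here.

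**Figure D3:**
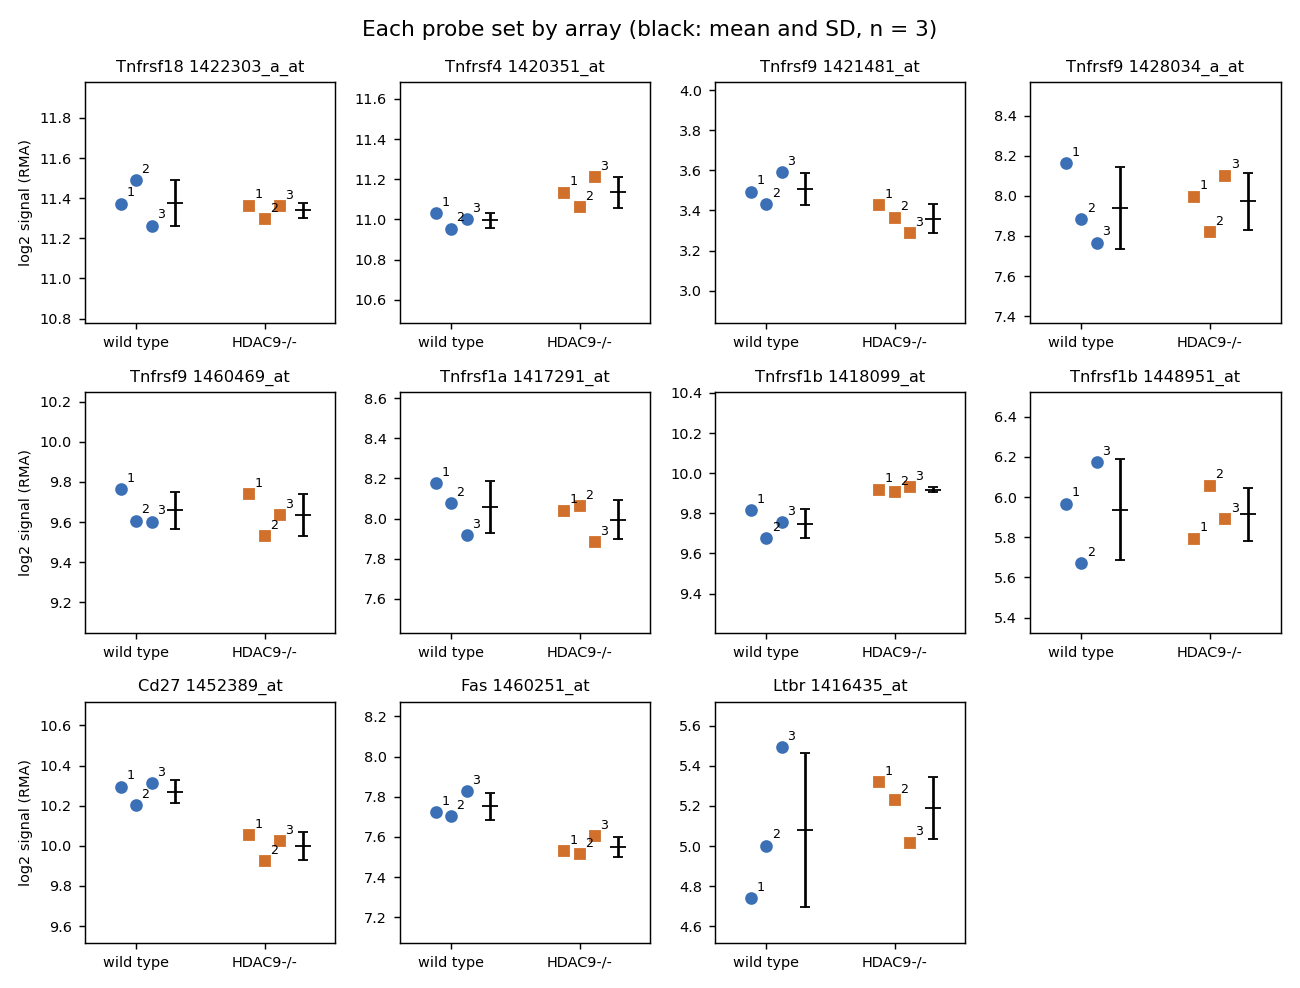
Log2 signal (vertical axes, each spanning 1.2 units) of each probe set on each array, with the replicate number beside each point. Circles are wild type and squares HDAC9-/- arrays, and the black mark is the mean with its SD (n = 3). The groups separate for Tnfrsf4, Tnfrsf1b 1418099_at, Tnfrsf9 1421481_at, Cd27 and Fas, and wild type Ltbr spreads most, from 4.74 to 5.50.

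The receptors of TNF itself gave different pictures in their probe sets. Tnfrsf1b, the receptor through which TNF expands Treg, read 9.82, 9.68 and 9.76 on wild type arrays and 9.92, 9.91 and 9.93 on HDAC9-/- arrays in probe set 1418099_at. All HDAC9-/- values lay above all wild type values, and they were close together (SD 0.011 against 0.07 in wild type). The difference was 0.17 with a standard error of 0.07, a change in signal of 12.5% (interval 0.010 to 0.33, limma adjusted p = 0.557, unadjusted p = 0.0399). The dimmer probe set 1448951_at read 5.97, 5.67 and 6.17 on wild type arrays and 5.79, 6.06 and 5.89 on HDAC9-/- arrays. It overlapped, with a difference of -0.024 and an interval of -0.35 to 0.31, wide enough to hold the value of the brighter probe set.

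Tnfrsf1a, the death domain receptor of TNF found on most cells, overlapped between the genotypes. Probe set 1417291_at read 8.18, 8.08 and 7.92 on wild type arrays and 8.04, 8.06 and 7.88 on HDAC9-/- arrays. Replicate 3 was the lowest of each group. The difference was -0.064, with an interval of -0.29 to 0.16.

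Fas, the death receptor that removes activated lymphocytes, read lower in HDAC9-/- samples without passing. Probe set 1460251_at read 7.72, 7.70 and 7.83 on wild type arrays and 7.53, 7.51 and 7.604 on HDAC9-/- arrays. The groups did not overlap, with the highest HDAC9-/- array at 7.604 and the lowest wild type array at 7.70. The difference was -0.20 with a standard error of 0.07, a change in signal of -13.1% (interval -0.37 to -0.04, limma adjusted p = 0.534, unadjusted p = 0.0235). Its promoter window, printed above, holds an AP-1 match.

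Ltbr was the most variable member. It binds lymphotoxin heterotrimers and TNFSF14 and is needed for lymph node formation. Probe set 1416435_at read 4.74, 5.003 and 5.50 on wild type arrays and 5.32, 5.23 and 5.02 on HDAC9-/- arrays. The wild type range enclosed the HDAC9-/- range, and both of its ends were wild type arrays. The difference of 0.11 had an interval of -0.35 to 0.57, the widest of the members. It was 0.32 without wild type replicate 3, the array that stands apart from the rest, and -0.061 without wild type replicate 1, the array with the lowest myeloid marker score (-0.45). The part of myeloid cells in these values was not tested.

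Of 6921 genes at or above the median brightness, those whose deviations from their own mean were closest to those of Ltbr over the 6 arrays were Fes, a tyrosine kinase, Ncr1, a natural killer cell receptor, and Atf5, a transcription factor. The root mean square difference was 0.08 log2 units for Fes and for Ncr1 and 0.10 for Atf5, against an SD of 0.27 for Ltbr itself. Each of the 3, like Ltbr, was highest in wild type replicate 3. So many genes on 6 arrays yield close matches for any pattern, and this likeness is a description.

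The distances of Cd27 to its neighbours in the brightness order differed between the genotypes. Within each array, the Cd27 signal exceeded that of Tnfrsf1b by 0.48, 0.53 and 0.56 in wild type and by 0.13, 0.015 and 0.09 in HDAC9-/- samples. The pair lay close together on all HDAC9-/- arrays and apart on all wild type arrays, at 0.52 ± 0.04 and 0.08 ± 0.06 (SD, n = 3). Likewise Tnfrsf4 exceeded Cd27 by 0.74, 0.75 and 0.69 in wild type and by 1.08, 1.14 and 1.19 in HDAC9-/- samples. Both pairs were picked after their values were seen, and both rest on Cd27, so they are given without a test. Tnfrsf18 exceeded its neighbour Tnfrsf4 by 0.38 ± 0.14 and 0.20 ± 0.05 (SD, n = 3).

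The ligands of the family were tested in the same fit, from a list of 18 genes of which 14 were measured in 21 probe sets. None passed (limma, smallest adjusted p = 0.378). An unadjusted p below 0.05 was found for 3 of 21 probe sets, 1 higher and 2 lower, where 5.55% and 3.23% of all had one. The median difference was -0.078 over probe sets. Over the brightest probe set of each gene it was -0.032, with 7 genes higher and 7 lower. Ltb, which forms the membrane-bound lymphotoxin that Ltbr binds, was the brightest ligand at 12.69 ± 0.04 in wild type against 12.59 ± 0.10 in HDAC9-/- samples (SD, n = 3). Lta, the soluble lymphotoxin that binds both TNF receptors, read 8.77 ± 0.03 and 8.60 ± 0.07, a difference of -0.17 whose groups did not overlap. Tnfsf11, the ligand RANKL, differed by 0.04.

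Tnfsf14 (LIGHT), another ligand of Ltbr, had the lowest difference of the ligand list. Its dimmer probe set 1421588_at read 5.48, 5.21 and 5.56 on wild type arrays and 4.73, 4.97 and 4.68 on HDAC9-/- arrays, a difference of -0.63 (limma adjusted p = 0.378). Its brighter probe set 1450298_at read 6.86, 6.18 and 6.45 against 6.26, 6.16 and 5.93 and overlapped, with a difference of -0.38. Tnfsf13b, the B cell survival factor BAFF, had a difference of 0.24 at a dim 4.09 and 4.33. The partners of Tnfrsf4, Tnfrsf9 and Cd27, named here outside the rule because they bind members, lay below the array median. Tnfsf4 read 4.74 in wild type, Tnfsf9 4.99 and Cd70 3.73. The ligand of Tnfrsf18 was not among the measured genes. Fasl, the ligand of Fas, read 6.89 and 6.58 in its brighter probe set, with overlapping groups.

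The other receptors of the family were mostly dim. Of 20 listed genes 17 were measured in 29 probe sets, and 3 genes were at or above the median brightness: Tnfrsf25, a death domain receptor that expands Treg when triggered, at 9.49 in wild type against 9.42 in HDAC9-/- samples, Tnfrsf13b, a receptor of BAFF on B cells, at 8.91 and 8.88, and Tnfrsf12a, the receptor of TWEAK, at 6.83 and 6.93. None of the 29 passed (smallest limma adjusted p = 0.557), and the median difference was 0.0003. An unadjusted p below 0.05 was found for 1 of 29, where 8.78% of all probe sets had one. That 1 was Tnfrsf19 1415921_a_at, a dimmer probe set of its gene (difference -0.21, unadjusted p = 0.0404), and the gene's other 2 probe sets differed by 0.04 and 0.18. With each gene represented by its brightest probe set, the smallest p were those of Tnfrsf11b (-0.18), Ngfr (-0.17) and Tnfrsf8 (-0.34), with wild type means of 4.004 to 4.51, below the array median.

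Adaptors and kinases that carry the receptors' signals were bright, with 20 of 24 genes measured in 44 probe sets and all 20 at or above the median. None passed (smallest limma adjusted p = 0.398), and the median difference was 0.016. Of the 44, 8 had an unadjusted p below 0.05 (7 higher and 1 lower, where 5.55% and 3.23% of all probe sets did). The genotypes did not overlap for 11 (8 higher and 3 lower, where 11.0% and 6.04% of all did not). Probe sets of the same gene are counted separately here, and several of the higher ones are those of Siva1, described below. The brightest were Casp8, the caspase started by death receptors (10.96 in wild type against 10.83 in HDAC9-/- samples), Ikbkb, a kinase of the NF-kappaB inhibitors (10.74 and 10.66), and Birc3, a ubiquitin ligase bound to TRAF proteins (10.51 and 10.56). Ikbkg, the regulatory subunit of the same kinase complex, differed by 0.16 in its brightest probe set.

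Siva1, a protein that binds the cytoplasmic tail of CD27, read higher in HDAC9-/- samples in all 4 of its probe sets without passing. The brightest, 1418377_a_at, read 7.49, 7.57 and 7.34 on wild type arrays and 7.89, 7.62 and 7.81 on HDAC9-/- arrays, a difference of 0.30 (limma adjusted p = 0.511). The other probe sets differed by 0.32, 0.31 and 0.11, and the genotypes did not overlap in any of the 4. Those probe sets target 1 gene and are not independent, and 2 of them carry the suffix that Affymetrix gives to probes shared with other transcripts.

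Cflar, which encodes the caspase-8 inhibitor FLIP, had probe sets of opposite sign. Probe set 1449317_at read 8.15, 8.24 and 8.32 on wild type arrays and 8.58, 8.47 and 8.67 on HDAC9-/- arrays (difference 0.34, limma adjusted p = 0.423). Probe set 1424996_at read 8.16, 7.96 and 8.11 against 7.90, 7.77 and 7.80 (difference -0.25, limma adjusted p = 0.498). Neither pair of groups overlapped, so no direction can be given for this gene, and its other 2 probe sets overlapped with differences of -0.15 and -0.09.

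Targets of NF-kappaB gave no common direction. Of 18 listed genes 16 were measured in 26 probe sets, and 0 passed (smallest limma adjusted p = 0.454). An unadjusted p below 0.05 was found for 3 of 26, 1 higher and 2 lower, where 5.55% and 3.23% of all probe sets had one. The median difference was 0.054, or -0.042 over the brightest probe set of each gene. Nfkbia, the feedback inhibitor of NF-kappaB, was the brightest at 13.17 ± 0.04 in wild type against 13.27 ± 0.03 in HDAC9-/- samples (SD, n = 3). Junb, an AP-1 subunit, differed by -0.09 and Tnip1, a partner of the deubiquitinase A20, by -0.066. Cxcl10, a chemokine, differed by 0.30 and Gadd45b, a stress sensor, by 0.20 in its brightest probe set, with overlapping groups for both. A second Gadd45b probe set, 1449773_s_at, read 9.32, 9.18 and 9.51 on wild type arrays and 9.71, 9.62 and 9.70 on HDAC9-/- arrays without overlap, a difference of 0.34 (limma adjusted p = 0.454, unadjusted p = 0.0104). It is the 1 higher probe set counted above, and the third, dimmer one differed by 0.053. The 2 lower were dim probe sets, Irf4 1421174_at (difference -0.30, limma unadjusted p = 0.0269) and Bcl2l1 1426191_a_at (-0.39, limma unadjusted p = 0.036). Groups overlapped for the first and not for the second, and the brightest probe sets of these genes differed by -0.092 and -0.051.

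**Figure D4:**
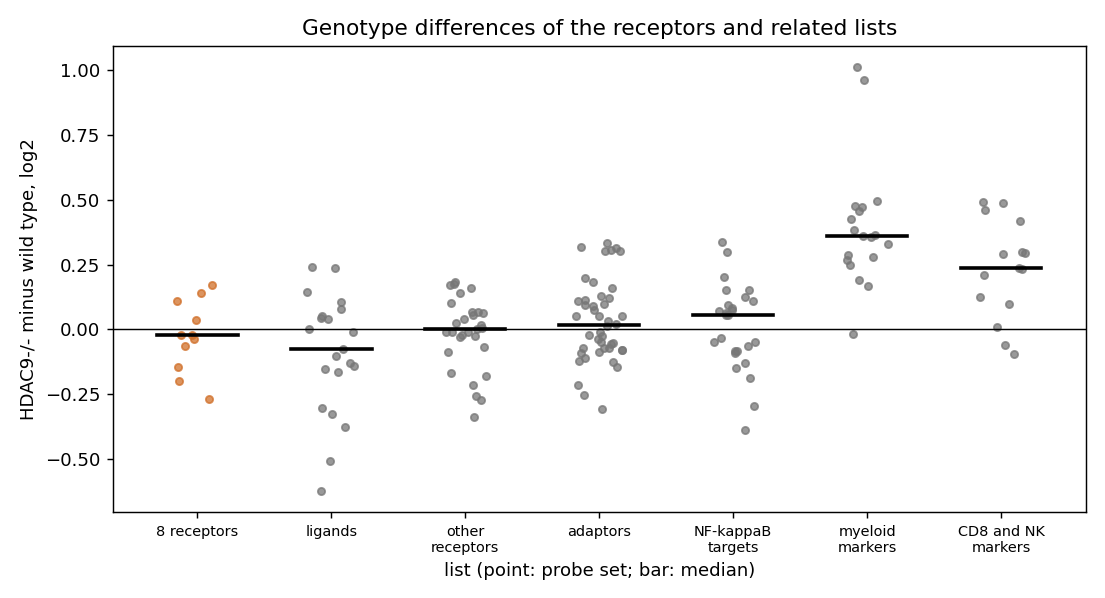
Difference between HDAC9-/- and wild type arrays (vertical axis, log2) of each probe set of the 8 receptors (orange), of the related lists and of 2 marker lists (grey), with the list median as a black bar. Medians are -0.024 for the receptors, -0.078 for ligands, 0.0003 for other receptors, 0.016 for adaptors and 0.054 for NF-kappaB targets, while myeloid markers (0.36) and CD8 and natural killer markers (0.24) lie higher. Horizontal positions within a list are random.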

How the data were processed

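The deposited table holds 1 log2 value per probe set and array for 6 arrays; the authors made it with RMA, per the submitters' processing notes, with version and settings not given in the sources used here. RMA shrinks the signal of dim probe sets, which understates their differences. Groups were taken from the sample titles. Of 22690 probe sets, 64 controls were left out and 22626 tested with no brightness filter; the platform annotation gives 20380 of them 1 symbol, 691 several and 1555 no symbol, and only the first kind named genes. No genome build is named in the table, so coordinates are given only for RefSeq promoter windows (GRCm38.p6).

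HDAC9-/- minus wild type was estimated over all probe sets (R 4.3.3, limma 3.58.1 with lmFit and eBayes, genotype as the only term), tested on simulated data beforehand. Intervals are at 95% from the moderated spread. A gene's brightest probe set has the highest mean over the arrays. The marker score of an array averages, over a list's genes, how far each lies from its own mean. Genes named were all members and, per related list, any that passed, the 3 of smallest p and the 3 brightest by the brightest probe set; for the member of largest SD, the 3 genes closest in pattern. Tnfsf4, Tnfsf9, Cd70, Fasl, Tnfrsf19, Irf4, Bcl2l1, S100a8, S100a9, the single plasma cell markers and further probe sets of named genes were added after their values were seen. Counts leave out listed genes that no such probe set measures. Members and lists were chosen with earlier results of these data known, so no list was tested as a set. Red cell and platelet markers were also read: 2 of 4 genes were higher in HDAC9-/- samples, with summed signals of 60 to 78 on wild type and 60 to 68 on HDAC9-/- arrays. Plots used Python 3.11.15 with matplotlib 3.10.9.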

Additional observations from a re-analysis of the deposited data

How the results depend on the processing

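No member probe set and no probe set of the related lists passed under any of the 12 alternatives fitted to both (quantile normalization again, array medians aligned, dim probe sets left out, a trended and robust prior, array weights, the replicate block and leaving out each array), or, for members, with the brightest probe set of each gene alone. Over 130 alternative values of the member differences, 120 kept their sign and side of the threshold, 10 turned sign and 0 passed. The smallest limma adjusted p was 0.123, for Cd27 with the trended and robust prior. The largest for Cd27 was 0.801, without HDAC9-/- replicate 1. Cd27 kept an unadjusted p below 0.05 in 12 of 12 alternatives, Fas in 9 and Tnfrsf1b 1418099_at in 5. The sign turned for Tnfrsf9 1428034_a_at and Tnfrsf1b 1448951_at with array weights (-0.073 and 0.086) and otherwise only when an array was left out. Leave-one-out ranges were -0.093 to 0.021 for Tnfrsf18, -0.052 to 0.15 for Tnfrsf9 1428034_a_at, -0.076 to 0.030 for Tnfrsf9 1460469_at, -0.16 to 0.094 for Tnfrsf1b 1448951_at and -0.061 to 0.32 for Ltbr. The members' median difference was -0.075 with array weights, which gave wild type replicate 3 a weight of 0.30. The count of members was 3 at an unadjusted p below 0.05 and 5 for groups that do not overlap, and without wild type replicate 3 the first was 2 (Cd27 and Ltbr, against 10.5% of all probe sets) and the second 8 (29.3% of all). Without HDAC9-/- replicate 1 or 2 the first was 1, Cd27 (6.11% and 6.21% of all). With array medians aligned, 3 members did not overlap (14.8% of all) and 2 had an unadjusted p below 0.05 (7.5% of all). Over the whole table the count of passing probe sets was 15 with the trended and robust prior, 6 with array weights, 1 with the brightest probe set of each gene, 0 with the replicate block and 0 to 6 when an array was left out, against 1987 at an unadjusted p below 0.05 and 3856 for groups that do not overlap. The order of levels had 4 genes in another place when a gene's probe sets were averaged, and 0 under each other alternative run. Correlations of same-numbered deviations were 0.036, 0.099 and -0.25, inside the range of -0.35 to 0.28 for differently numbered arrays. With 3 arrays per genotype they neither show nor exclude a pairing by replicate number. The replicate block is therefore given as a count alone, and in it 2 members, Cd27 and Fas, had an unadjusted p below 0.05 (7.28% of all). Ltbr and Tnfrsf9 1421481_at lie below the array median, where signal over background limits what can be seen, and have no value with dim probe sets left out.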
